A study of Mus musculus with 6 samples.

Results

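Genes of the exocyst, the sorting nexins, the vacuolar protein sorting (VPS) proteins, the endosomal sorting complexes required for transport (ESCRT) and the EHD proteins were followed in mammary luminal cells of mice labelled as Ocln knockouts. They were taken by symbol from the authors' deposited table of knockout over control, as every symbol that begins with Exoc, Snx, Vps, Chmp or Ehd and a digit, and 90 of the 16701 listed genes met that rule. The RNA-seq part of the series compared polyadenylated RNA of luminal epithelial cells of the mouse mammary gland, the cells that line the ducts and make milk, in 3 libraries labelled Ocln knockout and 3 labelled WT control, all taken at 7 weeks of age. Occludin, the product of Ocln, sits in the tight junctions that seal epithelial cells to each other, and the series asks how it acts with FIP5, a partner of the recycling endosome GTPase Rab11, at the mitotic spindle. The sources used here do not state the strain, the design of the Ocln allele, how the cells were isolated or whether each library is a separate mouse, so p-values measure only the spread between libraries, which may be technical. No values per library were used here. Each gene has a mean level over the 6 libraries in normalized counts, a log2 fold change with its standard error (SE) and a DESeq2 p-value, and the depth of each library is unknown.

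Endosomes sort what a cell has taken up. Retromer, retriever and many sorting nexins send membrane proteins back to the cell surface or to the Golgi, HOPS and CORVET tether membranes on the way to the lysosome, and the exocyst holds arriving vesicles at the plasma membrane before they fuse. ESCRT proteins bud receptors into the endosome lumen and also cut the last membrane bridge between daughter cells at the end of division, and EHD proteins shape and cut recycling tubules. In epithelia the exocyst and the Rab11 recycling endosome carry apical and junctional proteins to the surface.

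None of the 90 genes changed between genotypes at an adjusted p under 0.05, and 84 of them had a mean level of at least 50 normalized counts. At that threshold 0 were higher and 0 lower in the authors' deposited table, against 0.808 percent of all listed genes higher and 0.275 percent lower, or 1.08 percent in either direction. At an unadjusted p under 0.05, 4 were higher, which is 4.44 percent against 5.23 percent of all listed genes, and 3 were lower, which is 3.33 percent against 3.83 percent. Together these 7 are 7.78 percent of the genes, against 9.07 percent of all listed genes, so the share of small unadjusted p-values was no higher than the background. The 7 were Ehd1, Vps37b, Snx30 and Snx20 on the positive side and Exoc8, Snx10 and Snx24 on the negative side. DESeq2 is the only tool whose p-values the table holds.

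The fold changes were small and most were measured closely. The median log2 fold change of the 90 genes was -0.03, against -0.01 over all listed genes, and 39 were positive and 51 negative. The median absolute log2 fold change was 0.11, against 0.19 over all listed genes, and the median SE was 0.17, against 0.23. The 95 percent interval, taken as 1.96 SE on either side, lay within a 2-fold change in both directions for 82 of the 90 genes, or 91.1 percent, against 69.0 percent of all listed genes. It lay within a 1.5-fold change for 63 of them, or 70.0 percent, against 41.0 percent of all listed genes. The trafficking genes also had higher mean levels, with a median of 1232 normalized counts against 399. Where only genes at 50 normalized counts or more were taken, the shares within 2-fold were 97.6 percent of 84 trafficking genes and 86.1 percent of 12971 genes. A gene with the median SE of the group would have needed an absolute log2 estimate of 0.58, a 1.5-fold change, to be called. The estimate needed was 0.47 at the lowest SE of the 90 genes and 2.32 at the highest. These are cutoffs on the estimate and not limits on the true change.

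**Figure D1:**
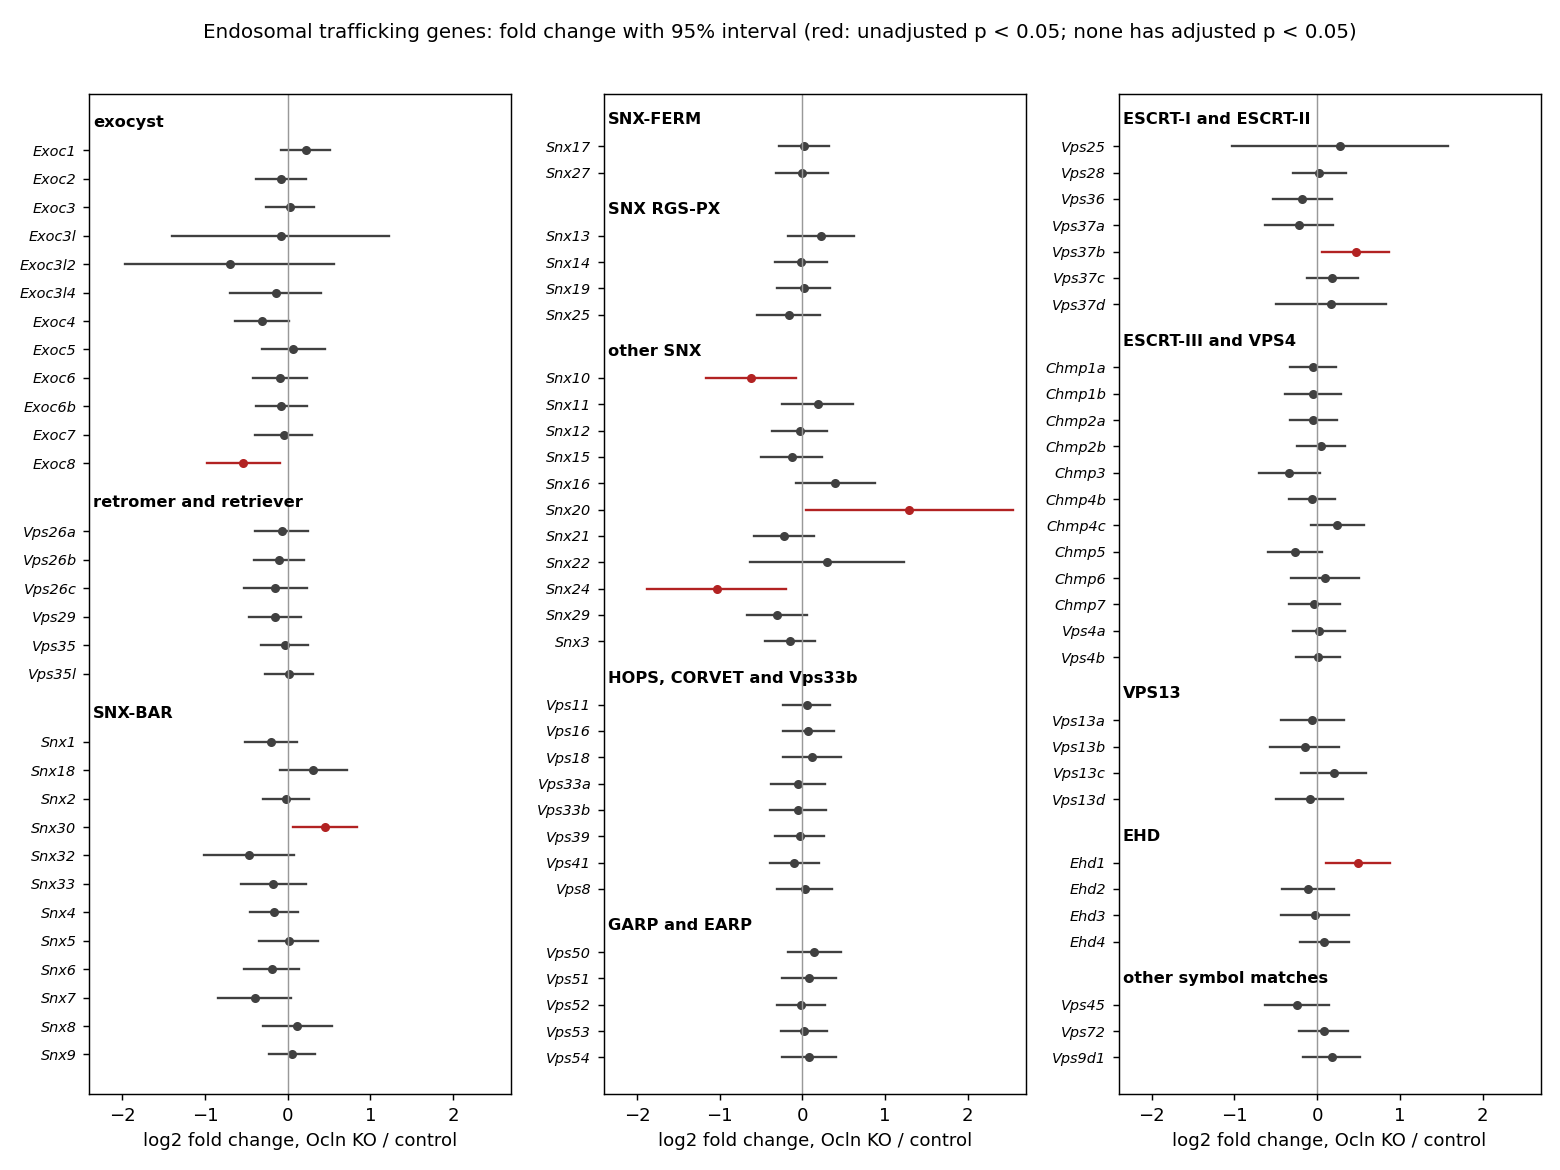
Log2 fold change, Ocln knockout over control, of each of the 90 trafficking genes by group, from the authors' deposited table. Points are the estimates and bars their 95 percent intervals from 3 knockout and 3 control libraries. Red marks the 7 genes with an unadjusted p under 0.05, and 0 genes have an adjusted p under 0.05.

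The targeted gene was lower but not at 0. In the authors' deposited table Ocln had -1.15 ± 0.16 on the log2 scale (SE, adjusted p = 4.36e-09 by DESeq2), which is 44.9 percent of the control level (95 percent interval 35.9 to 56.2 percent), at a mean level of 2048 normalized counts over both genotypes. Of the 90 genes, 2 had a larger change in size than 1 on the log2 scale, Snx20 and Snx24, and each of them had a mean level under 50 normalized counts. The plot of mean level against fold change shows the remaining genes in a band around 0. All 6 luminal markers were at mean levels of 13156 to 84084 normalized counts, and 0 of them passed. Markers of other cells were low but present. Their highest mean levels were 665 normalized counts for the smooth muscle actin gene Acta2, 877 for the endothelial gene Pecam1, 541 for the myeloid lysozyme gene Lyz2, 445 for the adipocyte gene Fabp4, 387 for the fibroblast gene Dcn and 195 for the B cell gene Ighm. At an adjusted p under 0.05, 1 of 7 basal markers (Oxtr) and 1 of 5 fibroblast markers (Dcn) were lower. At that threshold 1 of 5 myeloid markers (S100a8, at a mean level of only 37.5 normalized counts) was higher. Over all listed genes 0.808 percent were higher and 0.275 percent lower. The lists were mixed in sign: 4 of the 5 fibroblast and 2 of the 7 basal markers had positive estimates, Krt17 among the latter at 0.86 ± 0.42 (SE). Of the other lists, 0 of 4 endothelial, 0 of 1 adipocyte and 0 of 1 lymphocyte markers passed.

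**Figure D2:**
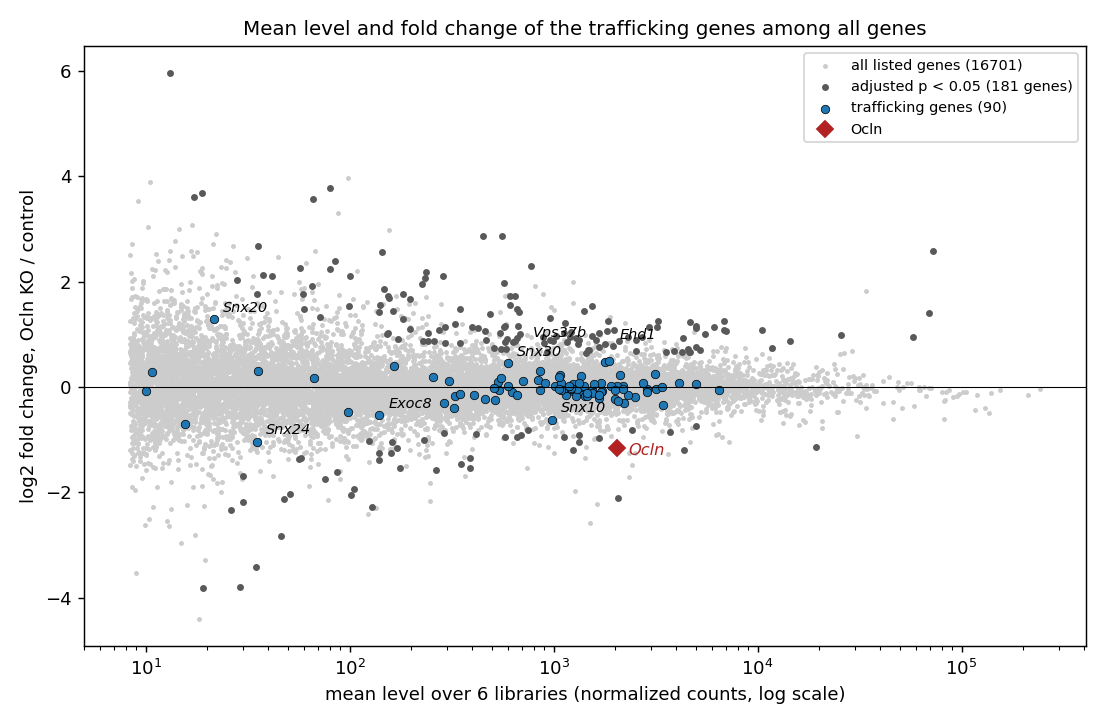
Mean level over the 6 libraries in normalized counts (log scale) against the log2 fold change, Ocln knockout over control, for all 16701 listed genes in light grey, the 181 with an adjusted p under 0.05 in dark grey, the 90 trafficking genes in blue and Ocln as a red diamond. The 7 trafficking genes with an unadjusted p under 0.05 are named, and Snx20 and Snx24 lie at the low end of the levels.

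Among the exocyst genes, 8 of the 9 subunit genes had 95 percent intervals that contain no change, and Exoc8 had the lowest estimate. Intervals that exclude no change were found for 1514 of the 16701 listed genes. The genes of the tether's subunits with the highest level per kb of transcript were Exoc7 (461 normalized counts per kb), whose product binds phosphoinositides of the plasma membrane, and Exoc4 (459). Exoc8, which encodes an effector of the Ral GTPases, had the lowest at 30.5 normalized counts per kb. No error can be given for these levels. The log2 fold change of Exoc8 was -0.54 ± 0.23 (SE) in the authors' deposited table, or 68.9 percent of control (95 percent interval 50.8 to 93.6 percent), and it did not pass (unadjusted DESeq2 p = 0.0172, adjusted p = 0.378). On GRCm38 it occupies positions 124893108 to 124897705 of chromosome 8, minus strand. Its start is 181 bases from that of Sprtn on the other strand, and Sprtn stood at -0.01 ± 0.20 (log2) in the authors' deposited table. The difference between the neighbours was not tested.

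The other exocyst subunits varied less. Exoc4 had -0.31 ± 0.17 (SE), 80.6 percent of the control level, and Exoc1, a subunit that meets the plasma membrane, had 0.22 ± 0.15, or 116.3 percent, these being the next lowest and the highest estimates of the 9 in the authors' deposited table. For Exoc6, whose product binds Rab11 and so links the tether to recycling vesicles, the authors' deposited table gives -0.09 ± 0.17, and for its paralog Exoc6b -0.08 ± 0.16. Exoc5, which joins that subunit to the rest, stood at 0.07 ± 0.20, the Ral effector gene Exoc2 at -0.08 ± 0.15, Exoc3 at 0.03 ± 0.15 and Exoc7 at -0.05 ± 0.18 in the authors' deposited table. Across the 9 subunits the median was -0.08 and the 95 percent intervals ran from 50.8 to 143.1 percent of the control level. The related genes Exoc3l and Exoc3l2 had mean levels of only 10.1 and 15.5 normalized counts, so their fold changes of -0.09 ± 0.67 and -0.70 ± 0.64 in the authors' deposited table are imprecise, while Exoc3l4, at 408 normalized counts, had -0.15 ± 0.28.

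Retromer and retriever, which pull membrane proteins out of endosomes for reuse, had values in a narrow range around 0. All 4 genes of the retromer core had estimates slightly under 0 in the authors' deposited table, with Vps35, the scaffold subunit, at -0.04 ± 0.15 (SE), the cargo-side subunits Vps26a at -0.07 ± 0.16 and Vps26b at -0.11 ± 0.15, and Vps29, which retriever uses too, at -0.15 ± 0.16. Each of these intervals contains 0, and together they run from 72.4 to 119.0 percent of the control level. The retriever genes Vps35l, at 0.02 ± 0.15, and Vps26c, at -0.15 ± 0.19, lay in the same range in the authors' deposited table. Per kb of transcript the core levels ordered as Vps35 (824 normalized counts per kb), Vps26a (638), Vps26b (431) and Vps29 (421), and the retriever genes had 264 for Vps35l and 261 for Vps26c. All 6 intervals lay within a 1.5-fold change.

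The 29 sorting nexins, which bind endosomal phosphoinositides through a PX domain, had 0 genes past an adjusted p of 0.05. At an unadjusted p under 0.05, 4 of them were found, or 13.8 percent against 9.07 percent of all listed genes, and this difference was not tested. Of the 12 that also carry a membrane-bending BAR domain, 1 had such a p, or 8.33 percent. This was Snx30, a partner of Snx4 in endosome recycling, at 0.45 ± 0.20 (SE), or 136.8 percent of the control level and an interval of 104.7 to 178.8 percent (unadjusted DESeq2 p = 0.0218, adjusted p = 0.420) in the authors' deposited table. Snx30 occupies positions 59805840 to 59904737 of chromosome 4 on GRCm38, plus strand, and a GENCODE transcript of it shares a stretch of 242 bases at 99.6 percent identity with Snx2, so reads there could be given to either gene. Snx2 had -0.02 ± 0.14 in the authors' deposited table. A longer stretch of Snx2, 543 bases at 99.1 percent identity, matches the pseudogene Gm12543, which is also listed and overlaps exons of Snx30 on the same strand. Reads there could be given to Gm12543 as well. Snx4 had -0.17 ± 0.15 and Snx7, the other partner, -0.40 ± 0.23, or 75.8 percent of the control level, in that table, so the members of this small group had estimates of opposite sign and none passed. Among the BAR nexins that work with retromer, Snx1 had -0.20 ± 0.16, Snx5 0.01 ± 0.18, Snx6 -0.19 ± 0.17 and Snx32 -0.47 ± 0.28 in the authors' deposited table. Snx6 had the highest level of the BAR group (1299 normalized counts per kb) and Snx32, the paralog of Snx6 known from neurons, the lowest (52.5). Exons of Snx32 are overlapped over 13.2 percent of their length by Cfl1 on the other strand. Cfl1 had a mean level of 5902 normalized counts against 98.2 for Snx32, so reads of the pair may not be told apart unless they were counted by strand. Snx9, Snx18 and Snx33, which act in endocytosis and, in human cells, in the completion of mitosis, had 0.05 ± 0.14, 0.31 ± 0.21 and -0.17 ± 0.20 in the authors' deposited table.

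Cargo adaptors of the family had estimates near 0. Snx17, the adaptor of retriever for integrins, had 0.02 ± 0.15 (SE), and Snx27, the adaptor of retromer for proteins with PDZ ligands, had -0.01 ± 0.16 in the authors' deposited table. Snx31, the third gene of this subgroup, was not analysed here. The 4 nexins of the RGS-PX subfamily had estimates from -0.17 ± 0.19 for Snx25 to 0.23 ± 0.20 for Snx13 in the authors' deposited table. Snx3, a small nexin that sorts cargo with retromer, had the highest level of all sorting nexins at 1651 normalized counts per kb and a log2 estimate of -0.15 ± 0.15 in the authors' deposited table. Snx16 stood at 0.40 ± 0.24 in that table. Its exons overlap those of Chmp4c on the other strand over 12.5 percent of their length, and Chmp4c, at a mean level of 3134 normalized counts against 164 for Snx16, had 0.25 ± 0.17 in the authors' deposited table.

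The estimates farthest from 0 among the nexins were those of Snx20, Snx24 and Snx10, and the first 2 had few reads. Snx10, which is needed for acid secretion by osteoclasts, had -0.62 ± 0.28 (SE), or 65.0 percent of control (interval 44.7 to 94.7 percent), at a mean level of 978 normalized counts in the authors' deposited table (unadjusted DESeq2 p = 0.0247, adjusted p = 0.438). Its SE of 0.28 exceeded the median of 0.17 although its level was close to the median of the group. It lies on the plus strand of chromosome 6, from 51523901 to 51590679. Snx24 had -1.04 ± 0.43, or 48.7 percent (27.2 to 87.3), and Snx20, known from leukocytes as a partner of the adhesion protein PSGL-1, had 1.29 ± 0.64, or 245.1 percent (102.7 to 585.1), in the authors' deposited table, at mean levels of 35.2 and 21.6 normalized counts. Neither passed (adjusted p = 0.363 for Snx24 and 0.523 for Snx20 by DESeq2). The authors' own calls, which rest on the unadjusted p and on the size of the change, list Snx20 as Up, as they do 1.8 percent of all genes, and Snx24 as Down, as they do 0.988 percent. All 5 myeloid markers also had positive estimates, from 0.21 ± 0.25 for Csf1r to 2.12 ± 0.53 for S100a8 in the authors' deposited table, with a summed mean level of 1182 normalized counts over both genotypes, and their part in the value of Snx20 was not tested. In a bulk sample, more cells of a type and more RNA per cell cannot be told apart.

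**Figure D3:**
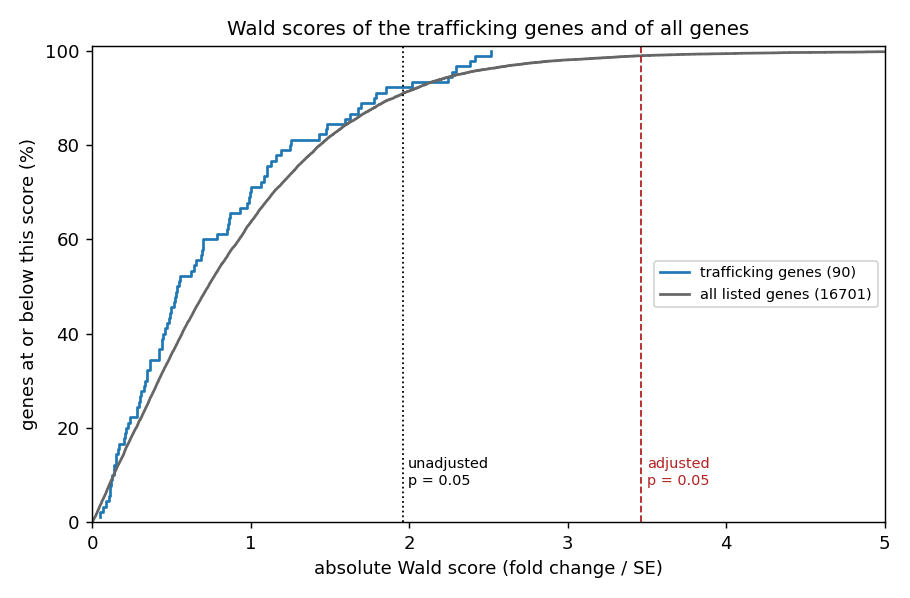
Share of genes at or below each absolute Wald score (the fold change over its SE) for the 90 trafficking genes in blue and all 16701 listed genes in grey. The dotted line marks an unadjusted p of 0.05 and the dashed line the score of 3.46 beyond which genes had an adjusted p under 0.05. The blue line reaches 100 percent before the dashed line.

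Tethers of the late endosome and the Golgi had estimates between -0.10 and 0.14. The 7 HOPS and CORVET genes, together with Vps33b of a related complex, ran from -0.10 ± 0.15 (SE) for Vps41 to 0.11 ± 0.18 for Vps18 in the authors' deposited table, and all 8 intervals lay within a 1.5-fold change. Vps39, which with Vps41 is particular to HOPS, had -0.03 ± 0.15, and Vps8, which is particular to CORVET, had 0.03 ± 0.17 in that table. The shared core genes Vps11, Vps16 and Vps33a had 0.05 ± 0.14, 0.07 ± 0.16 and -0.06 ± 0.17, and Vps33b, a homolog of Vps33a that pairs with another partner and has a role in apical sorting in epithelia, had -0.05 ± 0.17 in the authors' deposited table. Of the 5 genes of GARP and EARP, which share subunits and tether vesicles at the Golgi and at recycling endosomes, 4 were positive. Vps50, the subunit that sets EARP apart, had the highest of these at 0.14 ± 0.16, and Vps54, its counterpart in GARP, had 0.08 ± 0.16 in the authors' deposited table.

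A short sequence is shared by promoters of a few of these genes. The letters GTCACGTGAC, which are the core CACGTG flanked by GT and AC and a form of the CLEAR element through which TFEB and related factors act on lysosomal genes, were searched on both strands, which are equal for this palindrome, in RefSeq windows of GRCm38.p6 from 250 bases before to 50 after each gene start. Of the 90 genes, 63 matched a window, and 3 of the 63 held the motif, or 4.76 percent, against 0.37 percent of 27025 genes. The core CACGTG alone, which includes every match of the longer motif, was found for 8 of the 63, or 12.7 percent, against 8.09 percent of those genes. The 27025 genes number more than the 16701 listed ones, so this background includes genes that were not listed. Those of the 90 genes that matched no window were not searched. The share with the longer motif rests on 3 genes, and these differences were not tested. A match describes letters and shows no binding. The 250 bases before the start are printed for the 3 genes, to show where the motif lies, with GTCACGTGAC in capitals: it begins 20 bases before the start in Vps16 (chr2:130424070-130424319, plus strand), 14 bases before it in Vps33a (chr5:123573016-123573265, minus strand) and 184 bases before it in the first Vps26a window (chr10:62486806-62487055, minus strand).
Vps16: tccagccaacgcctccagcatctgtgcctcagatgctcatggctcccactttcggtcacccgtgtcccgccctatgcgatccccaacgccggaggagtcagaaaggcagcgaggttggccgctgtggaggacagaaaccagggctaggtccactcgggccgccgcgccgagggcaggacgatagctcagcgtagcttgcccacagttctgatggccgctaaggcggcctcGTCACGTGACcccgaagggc
Vps33a: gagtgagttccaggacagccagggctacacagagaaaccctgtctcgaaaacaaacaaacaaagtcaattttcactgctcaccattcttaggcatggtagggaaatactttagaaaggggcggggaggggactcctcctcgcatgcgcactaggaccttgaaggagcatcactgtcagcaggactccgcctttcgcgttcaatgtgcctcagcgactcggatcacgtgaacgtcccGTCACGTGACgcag
Vps26a: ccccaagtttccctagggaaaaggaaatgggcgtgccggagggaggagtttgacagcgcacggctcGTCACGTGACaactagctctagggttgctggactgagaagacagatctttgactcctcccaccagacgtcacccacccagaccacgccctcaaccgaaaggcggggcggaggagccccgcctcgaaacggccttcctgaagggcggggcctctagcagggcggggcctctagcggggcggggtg
By the GENCODE start of Vps33a at 123573038, its motif lies inside the gene, so its place before the start depends on the annotation. A further Vps26a window, which is not printed, holds a separate copy of the motif 153 bases before its own start. By the GENCODE start of Vps26a at 62486805, that copy lies inside the gene. The log2 fold changes of these 3 genes lay between -0.07 and 0.07, and the lowest unadjusted DESeq2 p among them was 0.654. Over the 8 genes with the shorter core the median log2 fold change was 0.09, against -0.06 over the other matched genes, as a description.

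ESCRT-I and ESCRT-II, which gather ubiquitinated receptors, held 1 gene of 7 with an unadjusted p under 0.05. Over all listed genes the share was 9.07 percent, and with so few genes the count says little about the group. Vps37b, one of the alternative subunits of ESCRT-I, had 0.47 ± 0.21 (SE), or 138.1 percent of the control level and an interval of 104.5 to 182.6 percent (unadjusted DESeq2 p = 0.0233, adjusted p = 0.431) in the authors' deposited table. It occupies positions 124004641 to 124032270 of chromosome 5 on GRCm38, minus strand, and 42.5 percent of its exon length is overlapped by genes of the other strand, Hip1r among them, which had 0.11 ± 0.14. The labels do not say whether reads were counted by strand, so reads of the pair may not be told apart. Its paralogs differed in sign in the authors' deposited table, with Vps37a at -0.22 ± 0.21, Vps37c at 0.18 ± 0.16 and Vps37d, at a mean level of 67.1 normalized counts, at 0.17 ± 0.34. Vps28, the core subunit they share, had the highest level at 1505 normalized counts per kb and a log2 estimate of 0.03 ± 0.16 in the authors' deposited table. Of ESCRT-II, Vps36 had -0.18 ± 0.18, and Vps25 had 0.28 ± 0.67 at a mean level of 10.8 normalized counts, per the authors' deposited table. The exons of Vps25 are overlapped on the same strand by Ramp2 over 67.2 percent of their length in GENCODE M21, so its level cannot be read from this count.

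ESCRT-III, whose CHMP subunits polymerize into the filaments that cut membrane necks, had with VPS4 the highest median level per kb of the groups. Of these 12 genes, 0 had an unadjusted p under 0.05, against 9.07 percent of all listed genes, and this difference was not tested. Chmp4b, the main filament subunit, had the highest level of all 90 genes at 3992 normalized counts per kb, followed in the group by Chmp2a (3357) and Chmp2b (2667), as the plot of levels by group shows. Their log2 fold changes were -0.06 ± 0.14 (SE), -0.05 ± 0.15 and 0.05 ± 0.15 in the authors' deposited table. The largest estimates were -0.34 ± 0.19 for Chmp3, or 79.1 percent of the control level and an interval of 61.2 to 102.3 percent, -0.27 ± 0.17 for Chmp5, and 0.25 ± 0.17 for Chmp4c, which delays the final cut of cell division when chromatin is trapped, in the authors' deposited table. Chmp1a, Chmp1b, Chmp6 and Chmp7, the last of which also seals the nuclear envelope after mitosis, ran from -0.05 ± 0.17 for Chmp1b to 0.10 ± 0.21 for Chmp6 in that table. Vps4a and Vps4b, the ATPases that take the filaments apart, had 0.02 ± 0.16 and 0.01 ± 0.14 in the authors' deposited table, and Vps4b had the lowest SE of the 90 genes. All 12 intervals of CHMP and VPS4 genes lay within a 2-fold change and 10 within a 1.5-fold change.

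**Figure D4:**
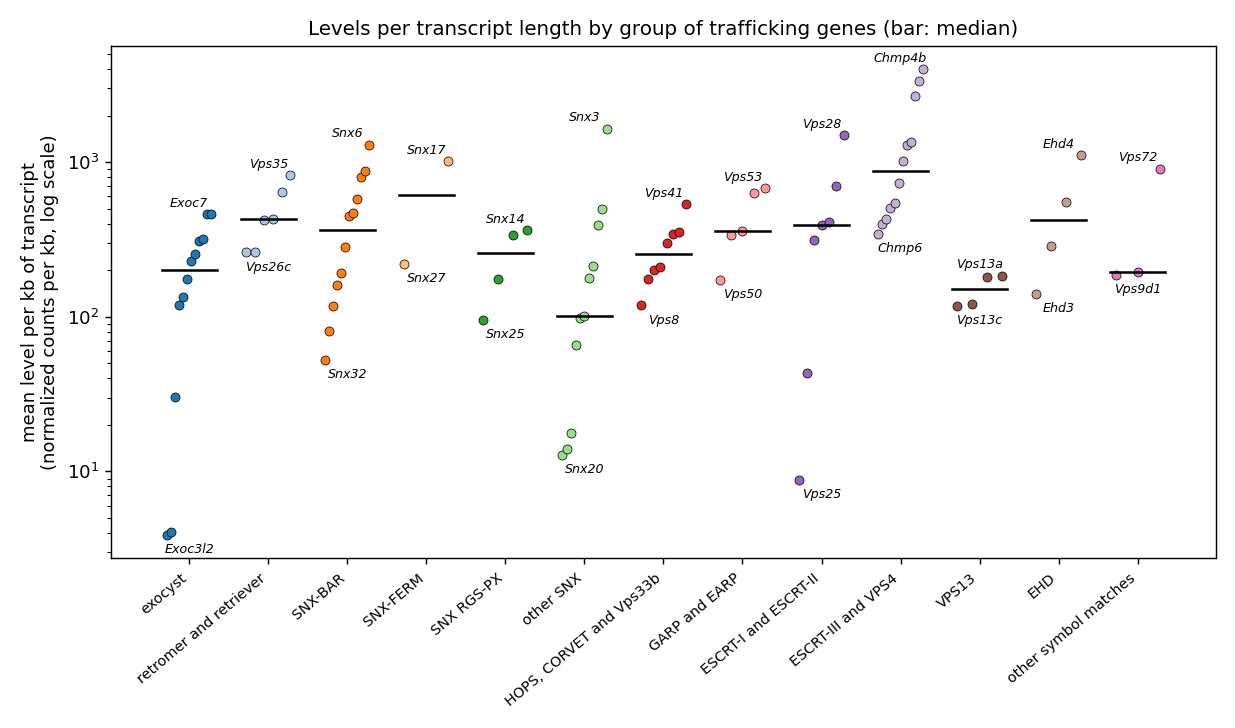
Mean level over the 6 libraries per kb of the longest annotated transcript (normalized counts per kb, log scale) of each trafficking gene by group, with a bar at the group's median and the highest and lowest gene of each group named. ESCRT-III and VPS4 have the highest median (877), and Exoc3l2, Exoc3l and Vps25 lie under 10.

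The remaining groups are small. Ehd1, which drives the exit of cargo from the recycling endosome, had the lowest unadjusted p of the 90 genes in the authors' deposited table, at 0.50 ± 0.20 (SE), or 141.1 percent of the control level and an interval of 107.9 to 184.5 percent (unadjusted DESeq2 p = 0.0119, adjusted p = 0.317). It ranked 628th among all listed genes by p. The gene lies on the plus strand of chromosome 19, from 6276725 to 6300096 on GRCm38. Ehd4, the most abundant of the family at 1110 normalized counts per kb, had 0.08 ± 0.15, Ehd3 had -0.02 ± 0.21 and Ehd2, which sits at caveolae, had -0.11 ± 0.16 in the authors' deposited table. Micall1, the partner that recruits Ehd1 to tubules, stood at -0.05 ± 0.19 in that table. The difference between Ehd1 and its paralogs was not tested, since estimates of genes from the same libraries are not independent. The 4 VPS13 genes, whose products carry lipids between membranes, ran from -0.15 ± 0.21 for Vps13b to 0.20 ± 0.20 for Vps13c in the authors' deposited table. Vps45, a partner of SNARE proteins, had -0.25 ± 0.20, Vps9d1 had 0.18 ± 0.18, and Vps72, which matches the symbol rule but encodes a subunit of chromatin remodelling complexes, had 0.08 ± 0.15 in the authors' deposited table.

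Partners outside the symbol rule likewise held no called gene. Of 34 listed partner genes, 15 of ESCRT and 19 of endosomal sorting and tethering, 0 passed an adjusted p of 0.05 in either direction. With p left unadjusted, 2 had lower values at under 0.05, which is 5.88 percent of the partners against 3.83 percent of all listed genes, and 0 had higher ones, against 5.23 percent. Both are among the 15 ESCRT partners. These were Mvb12b, a subunit of ESCRT-I, at -0.76 ± 0.33 (SE), and Cep55, which brings ESCRT to the midbody of dividing cells, at -0.90 ± 0.42, with adjusted p = 0.418 and 0.482 by DESeq2 in the authors' deposited table. All 5 markers of dividing cells had negative estimates too, from -1.17 ± 0.54 for Ccnb1 to -0.93 ± 0.64 for Top2a, with a summed mean level of 2384 normalized counts over both genotypes in the authors' deposited table, and 0 of them passed; their part in the value of Cep55 was not tested. Pdcd6ip, the ESCRT adaptor ALIX, had the highest mean level of the ESCRT partners at 6018 normalized counts and stood at 0.21 ± 0.14, while Tsg101, the ESCRT-I subunit that Cep55 binds, had 0.08 ± 0.17 in the authors' deposited table. Rab7, the GTPase of late endosomes that recruits retromer, had the highest mean level of the sorting partners, 4169 normalized counts, and 0.02 ± 0.13 in the authors' deposited table. The highest and the lowest estimates among the sorting partners were 0.28 ± 0.19 for Vac14, a scaffold of phosphoinositide synthesis, and -0.21 ± 0.21 for Washc3, a subunit of the WASH complex, in that table.

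None of these genes lay close to the targeted locus. The 4 that lie on chromosome 13 with Ocln are Snx18, Exoc3, Exoc2 and Vps41, and the nearest of them, Snx18, is 13.0 Mb away on GRCm38. Their log2 fold changes were 0.31 ± 0.21 (SE), 0.03 ± 0.15, -0.08 ± 0.15 and -0.10 ± 0.15 in the authors' deposited table. Of the 90 genes, 17 start within 1000 bases of a protein-coding gene of the other strand, and for 15 of these the neighbour was listed. Of those 15 pairs, 12 had estimates of the same sign and 3 of opposite signs. The share of such pairs with the same sign over all genes was not computed, and the count was not tested. Some signs rest on estimates near 0, such as -0.02 ± 0.15 for Vps52 in a pair of the same sign and 0.01 ± 0.18 for Snx5 in a pair of opposite signs. Exons of some pairs also overlap, as for Snx17 and Eif2b4, so their reads may not be told apart. Snx1 and Ciao2a, whose starts are 24 bases apart, had -0.20 ± 0.16 and -0.21 ± 0.19, while Vps16 and Pced1a had 0.07 ± 0.16 and -0.26 ± 0.17 in the authors' deposited table.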

How the data were processed

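Polyadenylated RNA of luminal cells was sequenced in 3 Ocln knockout and 3 control libraries. The only file used is the authors' deposited table of 1 comparison, made with DESeq2 on mm10 per the submitters' processing notes. The sources used here do not name the aligner, counter, strand setting, annotation or model. Per the file headers it holds each gene's mean level (a signal averaging normalized counts), log2 fold change, SE, Wald score, p-value raw and adjusted, and as other text the authors' call. Dividing fold change by SE gave the deposited score to within 2.58e-07, so the fold changes were not shrunk after the scores were computed. Whether the model itself shrank them is not stated. The lowest mean level listed was 8.35.

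No test per gene was added. Intervals of 95 percent were taken as 1.96 SE. Levels per kb were divided by the longest protein-coding transcript of GENCODE M21 (GRCm38), which all 90 genes matched by symbol. Near copies were sought with blastn 2.17.0 (at least 95 percent identity over 200 bases), and the recomputed adjusted p-values were tested on simulated data. Genes are named where the unadjusted p was under 0.05, where they had the highest level or an extreme fold change in their list, or as members of small families. Other genes, among them partners, neighbours and overlapping genes, were chosen after their values were seen. The members and lists were chosen with earlier results of these data known. Tools were Python 3.11.15, pandas 2.3.3, numpy 2.4.6, scipy 1.17.1 and matplotlib 3.10.9.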

Additional observations from a re-analysis of the deposited data

How the results depend on the processing

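The counts of 0 genes higher and 0 lower held with a mean level of at least 50. They also held after centring on the median of all genes and after removal of the length trend in 20 bins. An adjusted p under 0.01, or an absolute log2 change of at least 1 as well, only tightens the call and could not raise them. The same is true of scores corrected for an inflation of 1.18. The counts became 1 higher and 1 lower by the authors' own call, and 4 higher with 3 lower at an unadjusted p under 0.05. The median log2 fold change of the 90 genes lay between -0.0335 and -0.0251 under its alternatives, and Ocln kept its call under each. The score rose with transcript length over 16250 genes (Spearman rho 0.18) and less over the 90 (0.09), both as descriptions. A sign turned only for genes near 0. With the transcript length trend out these were Exoc3 (-0.0108), Exoc5 (-0.0216), Vps35l (-0.0200), Snx19 (-0.0328), Vps8 (-0.0203), Chmp2a (0.00291) and Vps4b (-0.0174). With the trend of merged exon length out, a choice made after seeing the data, they were Exoc5 (-0.0308), Vps35l (-0.0545), Snx19 (-0.0148), Vps8 (-0.0216) and Vps4b (-0.0315), and after centring Snx27 (0.000706). Each turn follows from the shift that the alternative applies. No paired analysis was possible because the table holds no values per library, and for the same reason leaving out each replicate was not run. Low counts limit the estimates of the 6 genes under a mean level of 50 (Exoc3l, Exoc3l2, Snx20, Snx22, Snx24 and Vps25). The 95 percent interval of 8 genes reached a 2-fold change.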

Other observations

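Near copies touch few of these genes. Of the 90 genes, 6 had a transcript stretch of at least 200 bases at 95 percent identity or more elsewhere in the annotation, counting Snx30 as the copy of Snx2, and 0 of the matches covered over 50 percent of the transcript searched with. The longest was a processed pseudogene that matched 1355 bases of Snx4, or 42.9 percent of its transcript. Exons of 9 of the 90 genes were overlapped over more than 10 percent of their length by a gene of the other strand, and those of 2, Vps25 and Vps51, by a gene of the same strand.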
